A study of Rattus norvegicus with 21 samples.

Results

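9 genes of the perineuronal net and the brain's proteoglycan matrix were examined: the lecticans Acan, Bcan, Ncan and Vcan, the link protein Hapln1, the tenascins Tnr and Tnc, the protease Mmp9 and the protease inhibitor Timp1. They were taken by gene name from the annotation of the array's probes, and 7 of the 9 had a probe, 1 probe each, among 21803 probes with signals. Ncan and Tnc had no named probe here. Of the 7, 4 (Acan, Vcan, Timp1 and Mmp9) were bright enough to be tested among 8211 features, and the other 3 (Bcan, Tnr and Hapln1) are given by their detection only.

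The study set areas of dentate gyrus that produced fast ripples, very fast field oscillations recorded in vitro, beside areas that did not. Hippocampal slices came from Wistar rats made epileptic with the convulsant pilocarpine, were first characterised by electrophysiology, and then gave total RNA for an Illumina beadchip. All groups share the pilocarpine treatment, and no untreated rat was analysed here. The sources used here do not state age, the time since pilocarpine or how the areas were cut. Fast-ripple (FR) areas gave 10 arrays and nonFR areas 11. They came from 11 slices of 6 rats (labelled B1, B3, B9, B10, B13 and P91), and both areas were measured in 10 of the slices. Slices and areas of a rat are not independent rats, and the labels do not name the beadchip of an array, so chip and rat cannot be told apart.

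The perineuronal net is a lattice of matrix wrapped around the soma and proximal dendrites of certain neurons, in the hippocampus above all parvalbumin interneurons. Long hyaluronan chains form its backbone, lecticans bind to hyaluronan through link proteins, and tenascin-R cross-links the far ends of the lecticans. Secreted proteases such as MMP-9 and the ADAMTS family cut this lattice, and tissue inhibitors of metalloproteinases such as TIMP-1 restrain some of them.

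Mean signal per array ran from 84.2 to 370 units and 5648 to 9525 probes per array had a detection p below 0.01, with no separation of FR from nonFR arrays. By rat, B10 was the dimmest on average (104, arrays 84.2 to 127) and B9 the brightest (264), and single arrays of B1 and B3 lay within the range of B10. Areas of a slice could differ in mean signal. The FR area was dimmer in B1 (126 against 291) and in the first slice of B3 (115 against 311), and brighter in the third slice of B9 (370 against 169). The part of this in the differences by slice or rat was not tested. All levels below, other than summed levels, are log2 normalised signals after background correction with an offset of 16. The offset draws differences of dim probes towards 0, but their size also depends on the background estimate, so they are no lower bounds. For Acan the difference between areas was -0.24 in this setting, -0.14 with an offset of 50 and -0.084 with the authors' processed values. Levels of different probes are not compared. Summed levels add the tested markers of a list on the linear scale with the offset removed, so the brightest markers weigh most in them. Of the granule cell markers that define the dentate gyrus, 4 of 5 with a probe were detected and tested (Prox1, Calb1, C1ql2 and Rfx3), and Tdo2 was not. All 4 had a lower fitted mean in FR areas, with a median of -0.39, while 5 of 5 oligodendrocyte, 5 of 5 fibroblast and 7 of 8 microglia markers were higher, with medians of 0.34, 0.37 and 0.21. None of these markers passed the test, and a smaller number of cells of a type cannot be told apart from less RNA per cell in tissue of this kind.

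No member differed between FR and nonFR areas beyond the spread between arrays. In limma, with rat as a block, 0 of the 4 tested members had an adjusted p below 0.05, as had 0% of the 8211 features, and the smallest adjusted p of any feature was 0.99991. At an unadjusted p below 0.05 there were 46 features, 26 higher and 20 lower in FR areas, and no member was among them. They were 0.56% of the features tested, a smaller share than the threshold of 0.05 itself. Missing the threshold is no sign that the areas are alike, and the intervals given below carry that limit.

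Acan encodes aggrecan, the lectican most specific to perineuronal nets. Its probe (ILMN_1367163) was detected on all 21 arrays but was dim, with raw signals of 42.9 to 89.8 against a background mean of 29.7 to 48.2. In FR areas Acan had a lowest level of 5.01, a median of 5.24 and a highest of 5.73 (mean 5.33 ± 0.24, SD, n = 10). In nonFR areas the same values were 5.04, 5.39 and 6.28 (mean 5.54 ± 0.39, SD, n = 11). The groups overlapped over most of their range. The highest nonFR levels were those of B10 (6.04 and 6.28), where the raw signals were 56.0 and 43.6.

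Per rat, the FR minus nonFR difference of Acan was -0.25 in P91, -0.064 in B9, -0.19 in B1, -0.091 in B3, -0.51 in B13 and -0.49 in B10. These rat values use all arrays, and that of B9 takes in a nonFR area whose slice gave no FR area. From slices with both areas, a setting added after the data were seen, B9 was at 0.030 and the other rats as above. Acan was then lower in the FR area in 5 of 6 rats, and in 7 of 10 slices. Raw signal was higher in the FR area of B13 (63.3 against 58.3) and of the second slice of B3 (44.5 against 43.7), opposite to the normalised level. In the first slices of B3 and P91 raw signal was lower and the normalised level higher, and the other paired slices had the same order in both. Raw signals also differ with the brightness of the array. The fitted difference was -0.24 (SE 0.12, 95% interval -0.50 to 0.017, unadjusted p = 0.0654, adjusted p = 0.99991 in limma). Flipping the signs of the 6 rat means in all combinations, an exact test in both directions, gave p = 0.03125 with all arrays, the smallest this design allows, and p = 0.0625 from slices with both areas, each with an adjusted p of 1 over all features. With all arrays a higher level in 6 of 6 rats was seen for 48 features. A lower level in 6 of 6 rats was seen for 56 features, 0.682% of those tested, and Acan was the 1 member among them. That direction had been seen in earlier results from these arrays, so it is no independent support, and it rests on the unpaired array of B9. Without the detection filter the difference of Acan was the same, with an SE of 0.084 and a 95% interval of -0.42 to -0.063. Its unadjusted p was 0.0113 and its adjusted p 0.99996 in limma. The Acan values of this fit are those of the main fit. Only the spread that limma borrows across features changed, here from 21722 features that include undetected probes, so the narrower interval is no added support.

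Interneurons of the parvalbumin type carry the nets, and Acan correlated by 0.20 with the mean of the interneuron markers (within rats -0.22). Of 8 tested interneuron markers 6 were higher in FR areas (median 0.10), with summed levels of 1134 to 4805 in FR and 1215 to 5668 in nonFR areas, and Gad2 was not detected. Pvalb itself, the parvalbumin gene, differed by 0.15 (SE 0.35, adjusted p = 0.99991 in limma), though 2 rats were higher and 4 lower. Acan correlated by -0.59 with the array's log2 mean signal over the 21 arrays (Spearman's rho -0.42), and by -0.088 once rat means were removed. The lists with the strongest relation to Acan ran the other way: r was -0.68 with oligodendrocyte precursor markers (within rats -0.54), -0.69 with endothelial markers (within rats -0.35) and -0.65 with microglia markers (within rats -0.40). For oligodendrocyte markers r was -0.069 over all arrays and -0.53 within rats, and for granule cell markers -0.13 and 0.49. In FR areas 4 of 4 precursor markers were higher (median 0.34, summed levels 1025 to 5793 against 481 to 3607 in nonFR areas), with Olig2 not detected. The part of cell content and of array brightness in the levels of Acan was not tested. The genes most like Acan over the 21 arrays were Klhl42 (r = 0.80, within rats 0.70), an adaptor of a ubiquitin ligase, Rig1 (0.78, within rats 0.63) and Ankrd37 (0.78, within rats 0.50), an ankyrin-repeat protein induced by low oxygen. Without B10, r was 0.57 for Rig1 and 0.59 for Ankrd37. Klhl42 was also lower in the FR area of all 6 rats (-0.041 to -0.67), but it was chosen for its likeness to Acan on these arrays.

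**Figure D1:**
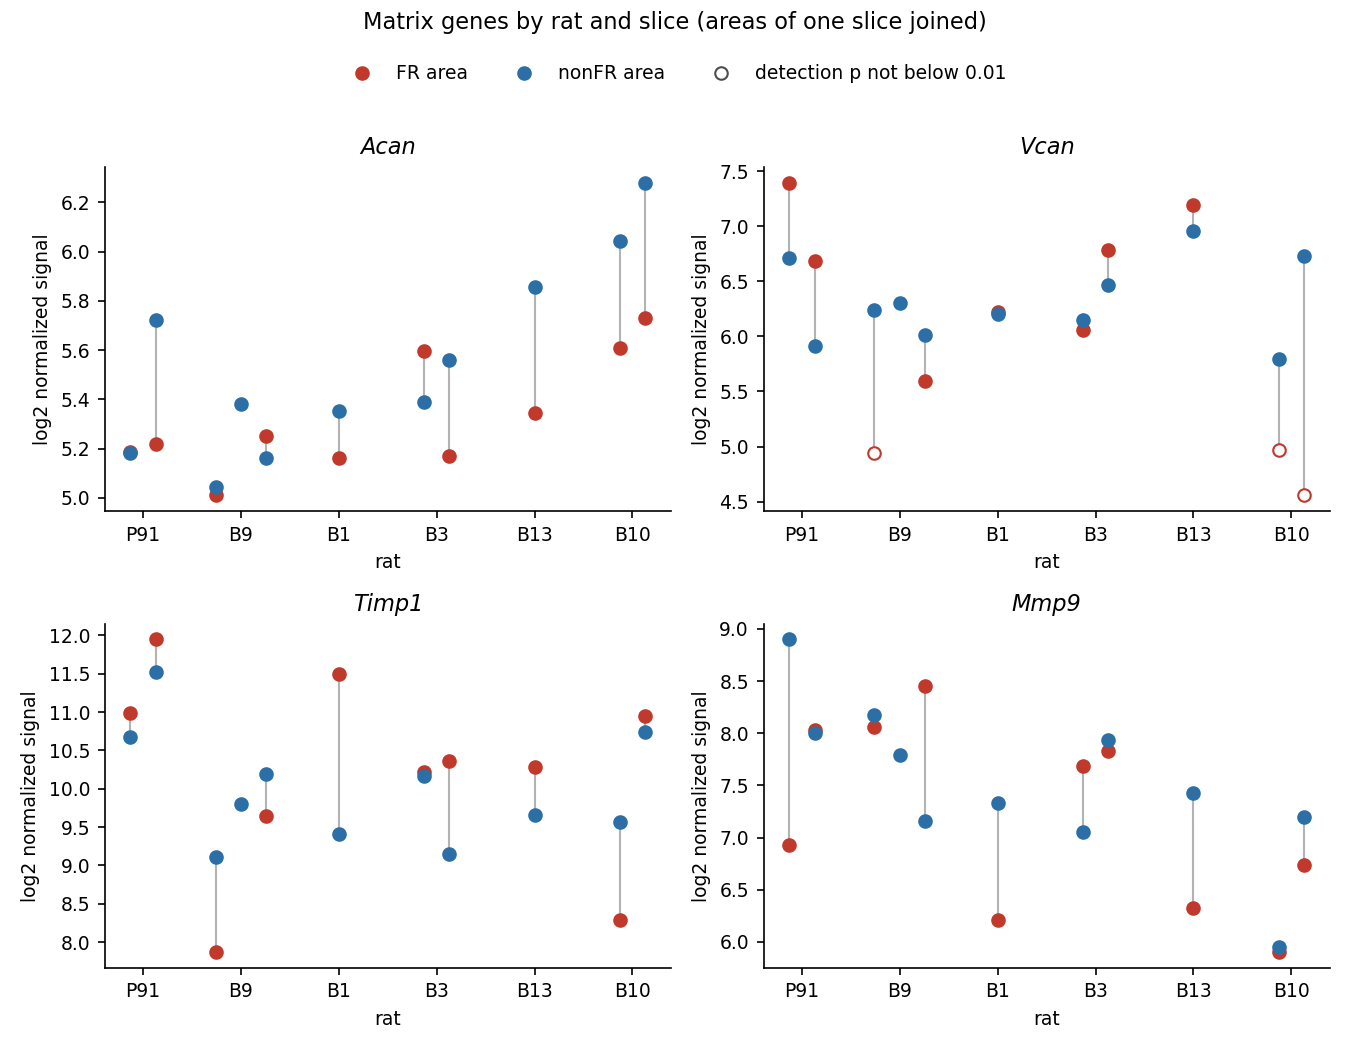
Log2 normalised signal (y axis) of Acan, Vcan, Timp1 and Mmp9 by rat (x axis), with the FR area in red and the nonFR area in blue, 1 point per array, areas of a slice joined by a line. Open points mark arrays on which the probe had no detection p below 0.01. The 3 open Vcan points are FR areas of B9 and B10, and the points of both areas overlap in every panel.

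Vcan encodes versican, a lectican made by glia and vascular cells and found in the looser matrix between cells. Its probe (ILMN_1373952) was detected on 18 of 21 arrays, on 7 of 10 FR and all 11 nonFR arrays, with raw signals of 33.04 to 243. In FR areas Vcan had a lowest level of 4.56, a median of 6.14 and a highest of 7.40 (mean 6.04 ± 0.997, SD, n = 10), and in nonFR areas 5.79, 6.24 and 6.96 (mean 6.32 ± 0.37, SD, n = 11). FR areas thus held both the highest and the lowest Vcan levels of the series, and the nonFR levels lay inside their range.

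By rat, the Vcan difference was 0.73 in P91, -0.92 in B9, 0.018 in B1, 0.11 in B3, 0.24 in B13 and -1.50 in B10. Of the 6 rats 4 were higher and 2 lower, and the slices split evenly, 5 in each direction. Both slices of P91 were higher in the FR area (0.69 and 0.77), and both paired slices of B9 and of B10 were lower (-1.31 and -0.42, and -0.82 and -2.18). The 3 FR arrays on which Vcan was not detected belong to B9 and B10, where a level is only an upper bound. The fitted difference was -0.32 (SE 0.25, 95% interval -0.83 to 0.20, adjusted p = 0.99991 in limma), and it was -0.044 without B10 and -0.52 without P91. A test of whether the difference varied between rats, chosen after these values were seen, gave an unadjusted p of 0.0295 and an adjusted p of 0.9998 for Vcan, and 0 features passed it, though 1 did with the authors' processed values and 2 did without the detection filter or with the default control estimate.

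Among the marker lists, that of astrocytes had the highest correlation with Vcan. The level of Vcan correlated by 0.83 with the mean of 8 tested astrocyte markers over the 21 arrays (rho 0.81), by 0.80 within rats, and by 0.76 with the 7 markers other than Gja1 (within rats 0.71). In the order above, the FR minus nonFR difference of the astrocyte mean was 0.80, -0.53, 0.39, 0.070, 0.48 and -0.58, against 0.73, -0.92, 0.018, 0.11, 0.24 and -1.50 for Vcan. Both were above 0 in P91, B1, B3 and B13 and below 0 in B9 and B10. Summed astrocyte levels ran from 7071 to 30571 in FR and from 12554 to 23290 in nonFR areas, 4 of the 8 markers were higher and 4 lower in FR areas, and no astrocyte marker with a probe was undetected. Arrays of a rat share that rat, so these correlations are descriptions, and the part of astrocyte content in the Vcan levels was not tested.

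The gene most like Vcan was Gja1, connexin 43 of astrocyte gap junctions, with r = 0.88 over the 21 arrays and 0.91 within rats. Aadat, an enzyme that makes the glutamate receptor antagonist kynurenic acid, followed with 0.83, and Folh1, a carboxypeptidase that cleaves N-acetylaspartylglutamate, with 0.83. Gja1 differed between areas by 0.77 in P91, -0.73 in B9, 0.35 in B1, 0.16 in B3, -0.15 in B13 and -1.44 in B10. The signs match those of Vcan in all rats but B13. All 3 genes were chosen for their likeness over the same arrays, so the r values carry no test.

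The promoter windows of this pair are shown because their levels moved together. They are RefSeq sequences of build GRCr8, each from 250 bases before to 50 bases after a start site, with capitals for matches on either strand to the AP-1 motif TGANTCA, the GC box GGGCGG or the TATA box TATAAA. The Vcan window, 1 of 2 overlapping ones listed for the gene, chr2:22595906-22596205 on the minus strand, held 1 GC box, and the Gja1 window, chr20:36302314-36302613 on the plus strand, held 1 AP-1 motif.
Vcan: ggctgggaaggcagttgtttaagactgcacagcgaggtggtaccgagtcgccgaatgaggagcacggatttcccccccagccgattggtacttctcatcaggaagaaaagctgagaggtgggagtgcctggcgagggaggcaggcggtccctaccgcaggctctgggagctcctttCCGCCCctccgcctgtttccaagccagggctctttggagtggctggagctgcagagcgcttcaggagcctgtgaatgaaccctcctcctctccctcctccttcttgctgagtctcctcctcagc
Gja1: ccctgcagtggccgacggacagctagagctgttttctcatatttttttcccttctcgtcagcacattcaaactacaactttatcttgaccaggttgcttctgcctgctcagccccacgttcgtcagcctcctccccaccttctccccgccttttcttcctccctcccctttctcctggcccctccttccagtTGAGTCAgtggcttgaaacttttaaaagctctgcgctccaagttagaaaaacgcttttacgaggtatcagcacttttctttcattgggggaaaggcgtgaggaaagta
The Vcan and Gja1 windows thus shared none of these motifs. Among all 33469 windows of this length, 7.33% hold the AP-1 motif, 33.1% the GC box and 14.2% the TATA box. A match is a description of letters, and no match says nothing about a factor.

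The remaining members of the lattice were near or below background. Bcan, which encodes brevican, the most abundant lectican of adult brain, was detected on 0 of 21 arrays (probe ILMN_1351030, detection p 0.183 to 0.980). Tnr, which encodes tenascin-R, was also detected on 0 (ILMN_1353848, detection p 0.0567 to 1). Hapln1, the link protein that pins lecticans to hyaluronan, was detected on 6 arrays, 3 FR and 3 nonFR, at levels of 4.25 to 5.29 in FR and 4.37 to 4.93 in nonFR areas (ILMN_1361552). These 3 are not well above background rather than absent. Of the 3 FR detections of Hapln1, P91 gave 2 and B9 gave 1, and the nonFR detections came from P91, B9 and B1. Fitted without the detection filter, Bcan differed by -0.019 (SE 0.036), Tnr by 0.028 (SE 0.052) and Hapln1 by 0.036 (SE 0.11), each with an adjusted p of 0.99996 in limma over 21722 features.

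In the rat genome each lectican gene lies beside a link protein gene. In RefSeq's GRCr8 annotation 0 protein-coding genes lie between Acan and Hapln3, Bcan and Hapln2, Ncan and Hapln4, and Vcan and Hapln1. Acan and Hapln3 were the only such pair with both genes tested. Hapln3 differed between areas by 0.14 (SE 0.17), with 3 rats higher and 3 lower, beside -0.24 (SE 0.12) and 6 rats lower for Acan, and the difference between the 2 genes was not tested. Hapln2, a link protein of the nodes of Ranvier on myelinated axons, differed by 0.38 (SE 0.44), was 2.09 higher in the FR area of B1 and 2.91 in that of B13, and lay between -0.51 and 0.11 in the other rats. In the same B1 and B13 areas the mean of the oligodendrocyte markers was 0.74 and 1.64 higher, and in P91, where Hapln2 stood at 0.11, it was 0.72 higher. The part of oligodendrocyte content was not tested.

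Timp1 encodes a secreted inhibitor of metalloproteinases that is induced in glia by seizures and inflammation in rodents. Its probe (ILMN_1359200) was detected on all 21 arrays, with raw signals of 175 to 4567. In FR areas Timp1 had a lowest level of 7.87, a median of 10.32 and a highest of 11.95 (mean 10.20 ± 1.31, SD, n = 10), and in nonFR areas 9.10, 9.81 and 11.52 (mean 10.00 ± 0.75, SD, n = 11). The nonFR levels lay wholly within the range of the FR levels, and the FR areas were the more spread.

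Timp1 differed by 0.37 in P91, -0.94 in B9, 2.10 in B1, 0.63 in B3, 0.62 in B13 and -0.53 in B10. It was higher in the FR area in 4 of 6 rats and in 7 of 10 slices. The fitted difference was 0.13 (SE 0.36, 95% interval -0.62 to 0.89, adjusted p = 0.99991 in limma; exact sign-flip p = 0.4375 over 6 rats). Without B1 it was -0.077, so its sign rests on the single slice of that rat, and without B9 it was 0.46. In that slice of B1 the mean of 5 tested fibroblast and meningeal markers was also 2.28 higher in the FR area, and Bgn, biglycan, a small leucine-rich proteoglycan, 2.36 higher. By rat the fibroblast difference had the sign of Timp1 throughout, but both slices of B10 and the first slice of B3 had opposite signs. Over the 21 arrays Timp1 correlated by 0.25 with the fibroblast mean (within rats 0.31). Among the marker lists that of astrocytes had the highest r with Timp1, 0.54 (within rats 0.32). The fibroblast markers summed to between 849 and 10920 in FR and between 989 and 4912 in nonFR areas, Col1a1, Col3a1 and Slc6a13 were not detected, and their part in the Timp1 level was not tested.

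**Figure D2:**
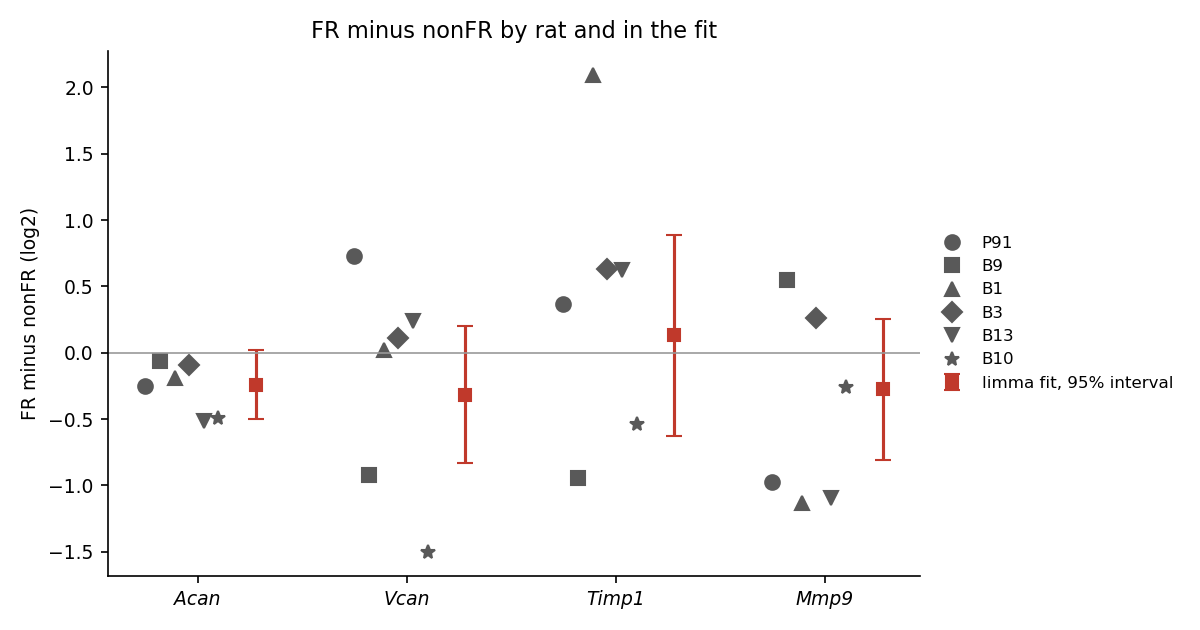
FR minus nonFR difference in log2 units (y axis) for Acan, Vcan, Timp1 and Mmp9 (x axis), with 1 grey symbol per rat and, in red, the limma estimate with its 95% interval. All arrays are used: all 6 rats lie below 0 for Acan, between -0.51 and -0.064 (B9 is at 0.030 from slices with both areas), and on both sides of 0 for the other 3 genes, and every interval drawn contains 0.

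The genes most like Timp1 over the 21 arrays were Il1b (r = 0.85, within rats 0.74), the cytokine interleukin-1 beta, Mt1 (0.84, within rats 0.76), a metal-binding stress protein, and Oasl (0.83, within rats 0.79), an interferon-induced protein. The 3 highest Il1b levels were those of P91 arrays (11.57, 10.83 and 9.62), and P91 also had the highest mean of Timp1. Without P91 the correlation of Timp1 with Il1b was 0.76. The FR minus nonFR differences of these genes did not run alike throughout. In B13, Il1b stood at 2.23 and Mt1 at -1.24, beside 0.62 for Timp1.

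The windows of Timp1 and Il1b are shown for the same reason as the Vcan pair, with the same capitals. The Timp1 window, chrX:3771073-3771372 on the minus strand, held 1 GC box, and the Il1b window, chr3:137036532-137036831 on the minus strand, held 1 TATA box.
Timp1: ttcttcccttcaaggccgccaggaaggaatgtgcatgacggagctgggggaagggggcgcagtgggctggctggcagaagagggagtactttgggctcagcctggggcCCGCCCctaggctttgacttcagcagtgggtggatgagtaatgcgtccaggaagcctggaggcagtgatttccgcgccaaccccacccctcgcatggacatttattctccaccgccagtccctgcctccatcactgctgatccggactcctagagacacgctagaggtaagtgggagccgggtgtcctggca
Il1b: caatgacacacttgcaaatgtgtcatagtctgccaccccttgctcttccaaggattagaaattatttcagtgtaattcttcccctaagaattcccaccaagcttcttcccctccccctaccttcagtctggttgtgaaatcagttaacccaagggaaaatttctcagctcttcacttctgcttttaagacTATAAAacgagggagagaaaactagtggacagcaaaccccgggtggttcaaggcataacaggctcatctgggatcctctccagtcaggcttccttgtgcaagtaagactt
Neither window held an exact AP-1 match, and they shared no motif of the 3.

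Mmp9 encodes gelatinase B, a secreted protease that neurons and glia release after strong activity and that cleaves matrix and synaptic adhesion proteins. Its probe (ILMN_2039240) was detected on all 21 arrays, with raw signals of 54.2 to 785. In FR areas Mmp9 had a lowest level of 5.90, a median of 7.31 and a highest of 8.45 (mean 7.22 ± 0.90, SD, n = 10), and in nonFR areas 5.95, 7.42 and 8.90 (mean 7.54 ± 0.76, SD, n = 11). The ranges were nearly the same, and the lowest level in each area was that of the first slice of B10.

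Across rats, Mmp9 differed by -0.97 in P91, 0.55 in B9, -1.13 in B1, 0.26 in B3, -1.10 in B13 and -0.26 in B10. It was lower in the FR area in 4 of 6 rats and in 7 of 10 slices, but the slices of P91 disagreed, at -1.97 and 0.026, as did those of B9, at -0.11 and 1.29, and of B3, at 0.63 and -0.10. The fitted difference was -0.27 (SE 0.25, 95% interval -0.81 to 0.26, adjusted p = 0.99991 in limma; exact sign-flip p = 0.219), -0.51 without B9 and -0.11 without P91. Timp1, the inhibitor of this protease, did not track it, since their correlation over the 21 arrays was 0.011 (rho -0.079), and -0.098 within rats.

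The genes most like Mmp9 were Eps8l2 (r = 0.86, within rats 0.75), an actin regulator, Trh (0.82, within rats 0.74), the precursor of thyrotropin-releasing hormone, and Grm2 (0.80, within rats 0.80), a presynaptic glutamate receptor. Grm2 differed by -1.96 in P91, 0.52 in B9, -2.43 in B1, 0.061 in B3, -1.12 in B13 and -0.049 in B10, the same signs as Mmp9. Eps8l2 and Trh had the signs of Mmp9 in all rats but B10, where they stood at 0.60 and 0.048 against -0.26. These genes were chosen for their likeness to Mmp9 over the same arrays, so shared signs are no independent support. Within rats Mmp9 correlated by 0.74 with the mean of the 4 granule cell markers, and over all arrays by 0.49 (rho 0.23, r 0.17 without B10). Other lists were as strong or stronger over all arrays. With microglia markers r was 0.49 (within rats -0.35), and with interneuron markers -0.59 (within rats -0.55). For oligodendrocyte precursor markers r was 0.25, and -0.51 within rats. The granule cell marker mean differed by -0.58, 0.035, -0.12, -0.093, -2.22 and -0.20 in the same order of rats. B3 thus had the opposite sign to Mmp9, as had B9 from slices with both areas (-0.055 against 0.59). The list summed to between 362 and 4692 in FR and between 525 and 6660 in nonFR areas. The part of granule cell content in the Mmp9 levels was not tested.

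**Figure D3:**
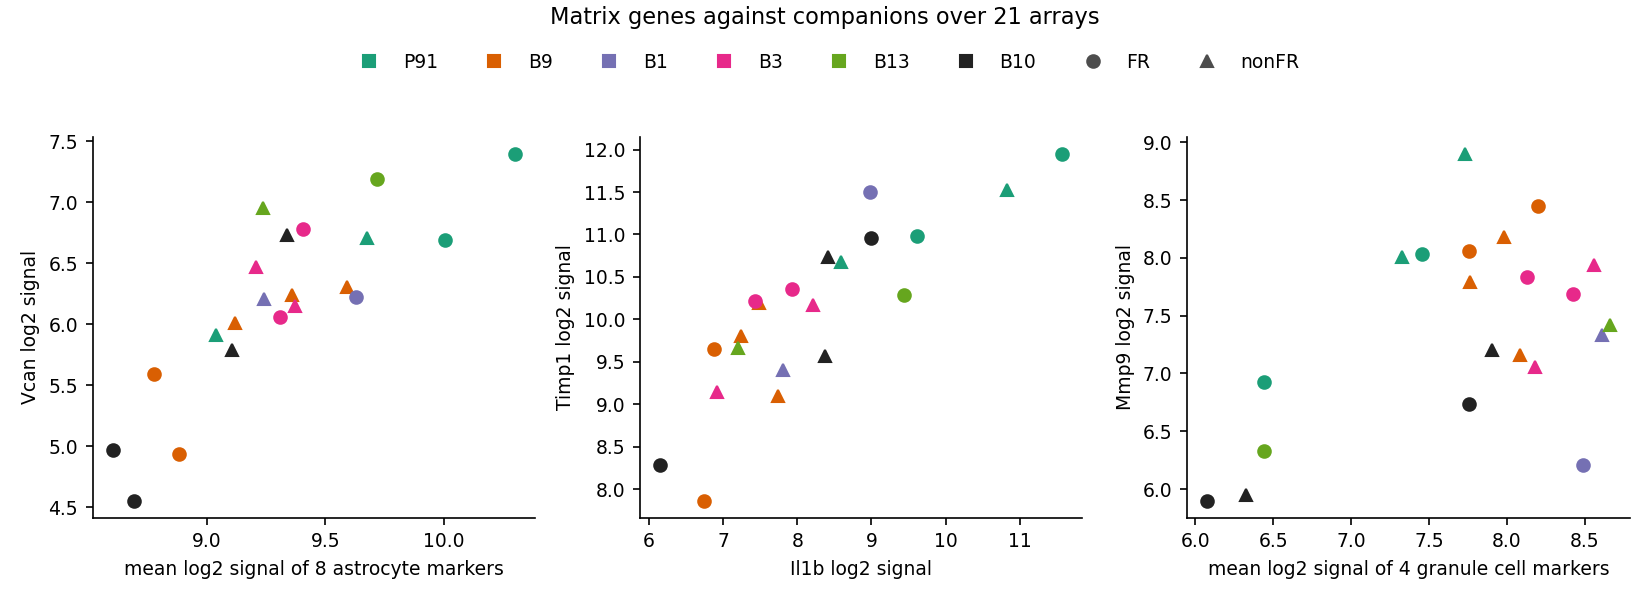
Log2 signal of Vcan, Timp1 and Mmp9 (y axes) on the 21 arrays against the mean log2 signal of 8 astrocyte markers, the log2 signal of Il1b and the mean log2 signal of 4 granule cell markers (x axes), with rats by colour, FR areas as circles and nonFR areas as triangles. The correlations over the 21 arrays are 0.83, 0.85 and 0.49.

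More features passed the test of a difference between rats than that between areas. A moderated F test of the rat term in limma, which counts areas and slices of a rat as its replicates, called 18.8% of the 8211 features at an adjusted p below 0.05, and 1 of the 4 tested members, Mmp9. The rat means of Mmp9 ran from 7.97 in P91 and 7.93 in B9 through 7.63 in B3, 6.87 in B13 and 6.77 in B1 to 6.45 in B10. No neighbours in that order differed beyond the ranges of their arrays. The fitted range was 1.52 (adjusted p = 0.0404), and over 18 alternatives the adjusted p ran from 0.0167 to 0.352, with the call lost in 12. With 1 value per slice the test called 160 features and the adjusted p of Mmp9 was 0.121. Mmp9 correlated by 0.52 with the log2 mean signal of the array over all arrays and by 0.081 within rats, and the part of brightness was not tested.

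The other 3 tested members did not pass between rats. Timp1 was highest in P91 (mean 11.28) and lowest in B9 (9.32), a fitted range of 1.94 (adjusted p = 0.144 in limma). B1 had 10.45, B13 9.97, B3 9.97 and B10 9.89, and the array ranges of neighbours in this order overlapped. Vcan was highest in B13 (7.07), followed by P91 (6.68), B3 (6.37), B1 (6.22) and B9 (5.82), and lowest in B10 (5.51), a range of 1.56 (adjusted p = 0.0855). Acan was highest in B10 (5.92), followed by B13 (5.60), B3 (5.43), P91 (5.33) and B1 (5.26), and lowest in B9 (5.17), a range of 0.77 (adjusted p = 0.0647). B10 was thus highest for Acan and lowest for Vcan and Mmp9 in normalised level. In raw signal B10, the dimmest rat, was not highest for Acan. Its 4 arrays read 42.9 to 56.0, and the highest raw signal, 89.8, was that of a nonFR area of B3 with a normalised level of 5.39. The part of array brightness and normalisation in this order was not tested. The median range over all features was 1.003. In 12 sets of values of the tested members (10 FR arrays, 6 rat means or 6 rat differences), 0 held a value set apart from the others by Dixon's 95% criterion.

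The wider matrix was described by 11 groups of genes, 140 in all, of which 107 had a probe and 53 were tested. Of these, 28 were higher and 25 lower in FR areas, with a median difference of 0.0071 against 0.0059 for all features, and 0 passed over all features or had an unadjusted p below 0.05. Between rats 12 of the 53 passed, 22.6% against 18.8% of all features.

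Genes that build or bind hyaluronan, the backbone of the net, had 1 of 6 tested members higher and 5 lower in FR areas. Has1, a hyaluronan synthase, differed by -0.25 (SE 0.21) and Lyve1, a hyaluronan receptor of lymphatic endothelium, by -0.15 (SE 0.19). Has1 passed between rats, with means from 6.50 in B13 to 4.67 in B9 (range 1.85, adjusted p = 0.00567 in limma). So did Has2, the main synthase of development, whose mean was 6.90 in B13 and 5.94 in B10 against 4.55 to 4.92 in the other 4 rats (range 2.36, adjusted p = 0.0176). The lower levels of Has2, down to 4.31 on single arrays, lie close to background, which limits what its range can show. Tnn, the 1 tenascin tested, differed by 0.084 (SE 0.28).

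Among the proteases, 3 of 6 tested metalloproteinases were higher and 3 lower in FR areas, and both tested ADAMTS proteases were lower. Mmp2, gelatinase A, differed by 0.14 (SE 0.16) and Mmp23 by -0.14 (SE 0.24). Adamts1, which cleaves aggrecan and versican, differed by -0.14 (SE 0.33), from 0.99 in B13 to -1.65 in B10, and Adamts9, which cleaves the same substrates, by -0.13 (SE 0.26). Adamts1 passed between rats, from 10.59 in B13 to 7.98 in B9 (range 2.63, adjusted p = 0.0250 in limma), whereas Adamts9 (range 1.76), Mmp15 (0.82) and Mmp11 (0.79) did not. Reck, a membrane-anchored inhibitor of metalloproteinases, differed by -0.14 (SE 0.24), and Timp2 and Timp3 had probes that were not tested.

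Proteoglycans outside the lecticans were mixed between areas, 5 of 11 tested cell-surface and other members being higher and 6 lower. Cspg5, neuroglycan C, differed by -0.52 (SE 0.31), with -3.17 in B1 and 0.82 in B13, and was -0.24 without B1. Cspg4, the NG2 proteoglycan of oligodendrocyte precursors, differed by 0.30 (SE 0.27), with 1.59 in B13. Between rats Cspg4 passed, from 8.43 in P91 to 6.31 in B10 (range 2.12, adjusted p = 0.0119 in limma), as did Gpc3, a glypican, from 8.83 in B13 to 6.01 in B9 (range 2.86, adjusted p = 0.0336). All 5 tested small leucine-rich proteoglycans had a higher fitted mean in FR areas (median 0.20), as had 4237 of all 8211 features. Prelp differed by 0.20 (SE 0.21, higher in 5 of 6 rats) and Lum by 0.26 (SE 0.39, 5 of 6 rats). Bgn differed by 0.25 (SE 0.27, 4 of 6 rats with all arrays), and by 0.029 without B1. In B9 the Bgn difference was 0.098 with all arrays and -0.056 from slices with both areas. Fmod differed by 0.067 (3 of 6 rats higher) and Dcn by 0.025 (2 of 6 rats higher). Of these 5, Dcn and Lum, are also among the fibroblast markers, of which 5 of 5 were higher. Bgn passed between rats, from 7.34 in P91 to 4.91 in B13 (range 2.43, adjusted p = 0.00764), and so did Prelp, from 6.90 in P91 to 5.26 in B3 (range 1.65, adjusted p = 0.0120).

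Enzymes of chondroitin sulfate synthesis lay close to 0 between areas, 4 of 7 being higher (median 0.0026). B4galt7, which adds a sugar of the linker region, differed by -0.096 (SE 0.17), and Chpf2, a chondroitin polymerising factor, by 0.11 (SE 0.25). Dse, the epimerase that turns chondroitin into dermatan sulfate, passed between rats (5.69 in B13 to 4.56 in B9, range 1.13, adjusted p = 0.0300 in limma). The lower levels of Dse, down to 4.44 on single arrays, also lie close to background. Among receptors and ligands of the net, 6 of 8 were higher in FR areas (median 0.048). Ptprf, the receptor phosphatase LAR, differed by 0.29 (SE 0.15, unadjusted p = 0.0779), with 4 of 6 rats higher, and Nptx2, a neuronal pentraxin that clusters AMPA receptors, by -0.70 (SE 0.43), with 5 of 6 rats lower and -2.55 in B1 and -2.17 in B13. Crtac1, an antagonist of the Nogo receptor, and Nrp1, a semaphorin 3A receptor, passed between rats. Crtac1 had means from 8.67 in B10 to 6.41 in B9 (adjusted p = 0.00954 in limma), and Nrp1 from 6.82 in B9 to 4.62 in B10 (adjusted p = 0.0171).

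**Figure D4:**
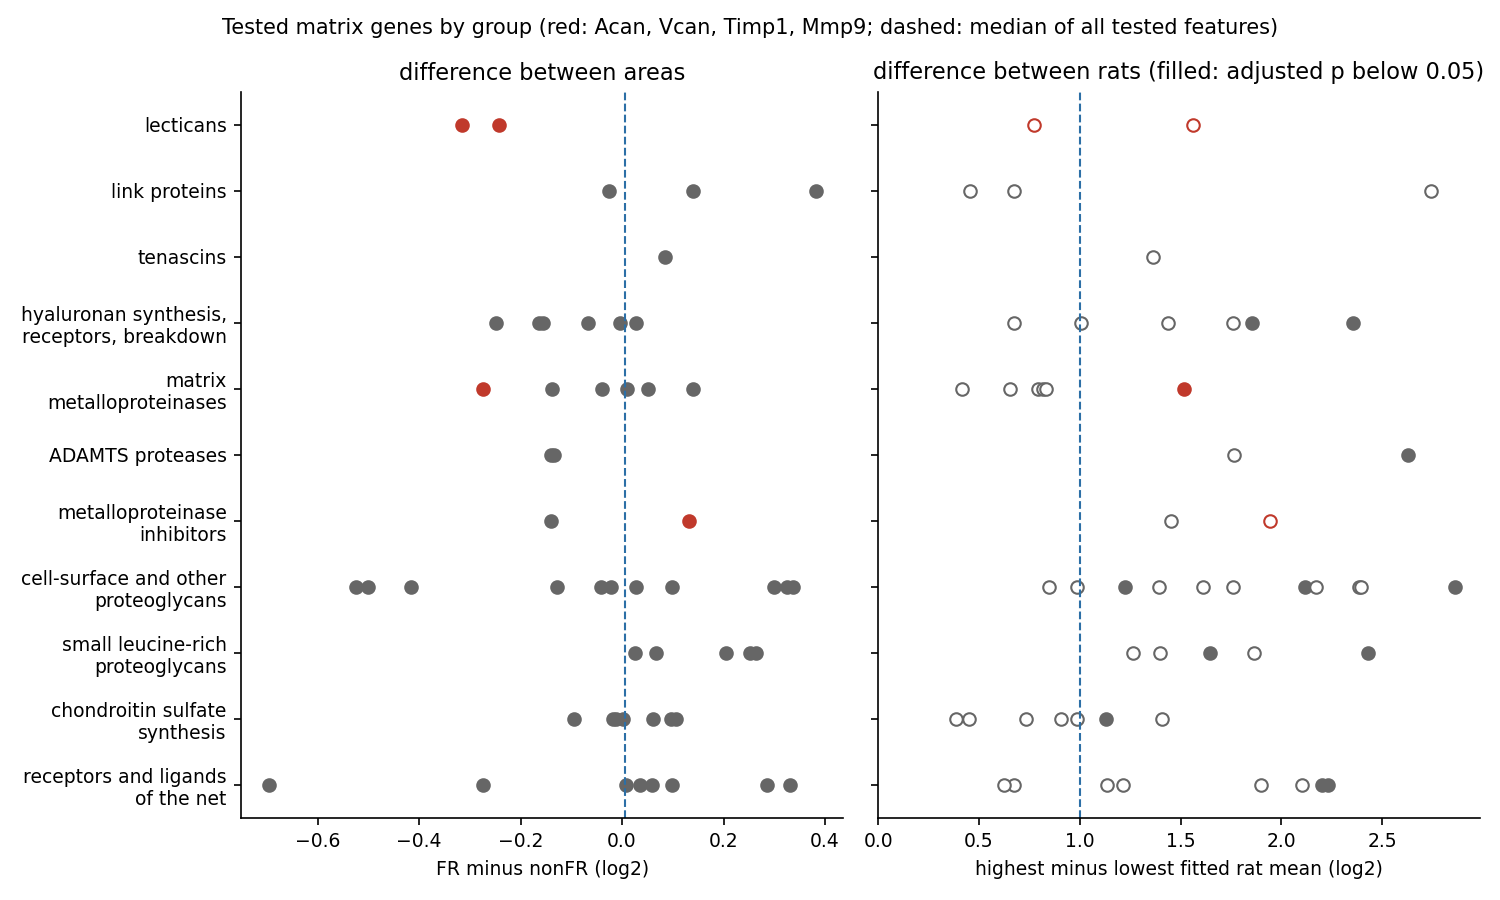
The 53 tested matrix genes by group (y axis), with the FR minus nonFR difference in log2 units (left x axis) and the highest minus lowest fitted rat mean in log2 units (right x axis). Red points are Acan, Vcan, Timp1 and Mmp9, dashed lines mark the medians of all tested features (0.0059 and 1.003), and filled points on the right have an adjusted p below 0.05 in limma. Both tested lecticans lie left of 0, all 5 small leucine-rich proteoglycans right of 0, and Mmp9 is the 1 filled red point.

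Calls between rats of the named genes depended on the setting. Has1, Bgn, Prelp, Crtac1, Cspg4, Has2, Nrp1, Adamts1, Gpc3 and Dse each lost the call in at least 4 of 17 or 18 alternatives, and with 1 value per slice each of these 10 genes had an adjusted p above 0.05.

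The members varied little with one another. Across the 21 arrays the 6 correlations among Acan, Vcan, Timp1 and Mmp9 ran from -0.36 (Acan with Mmp9) to 0.40 (Vcan with Timp1), and within rats from -0.098 (Timp1 with Mmp9) to 0.32 (Acan with Mmp9).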

How the data were processed

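Per the file headers and labels, the deposited table holds an average signal intensity and a detection p-value for every probe on 21 Illumina arrays, without normalisation. The authors' second table holds processed values on what their range shows to be a log2 scale, for which the submitters' processing notes name lumi 2.2. It served as an alternative. Signals were background-corrected by the normexp model of limma 3.58.1 in R 4.3.3, with an offset of 16, quantile normalisation and log2. The design named limma's neqc, whose default estimate of the negative-control spread was wide (26.4 to 179 units), on arrays with 13 to 59 probes brighter than 200 units at a detection p-value above 0.05. The control mean and SD were therefore taken from probes within 0.02 of 3 fixed detection p-values, and the default was run as an alternative. A probe was kept where 10 or more arrays gave it a detection p under 0.01, and of several probes of a gene the brightest stood for it (8211 features). The number of arrays limits the precision.

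FR was compared with nonFR by limma with area and rat as terms, and by an exact sign-flip test over 6 rats, whose differences use all arrays of a rat (1 nonFR area of B9 has no FR partner). The rat term was tested by a moderated F test. All p-values are two-sided where a direction exists and adjusted by Benjamini-Hochberg over all features. The labels pair areas by rat and slice. Deviations from group means correlated by 0.33 on average within slices (10 pairs, 0.0068 to 0.60), by 0.33 between slices of a rat and by -0.11 between rats. The members, lists and tests were chosen with earlier results of these data known. Named genes are the members, the 3 genes most correlated with each tested member, and from each matrix group up to 2 genes with the smallest p between areas and 2 between rats. Simulated data with known changes served to check the code of the fits. Their noise was independent between arrays, so they do not speak to error rates under the correlations given above. Alternatives covered background, offset, filter, weights, block and left-out arrays or rats.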

Additional observations from a re-analysis of the deposited data

How the results depend on the processing

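The count of features differing between FR and nonFR areas was 0 under all 18 alternatives, and Acan (-0.28 to -0.063), Vcan (-0.52 to -0.016, 17 alternatives) and Mmp9 (-0.51 to -0.084) kept their sign. With rats left out in turn, the difference of Timp1 ran from -0.077 to 0.46, Tnn from -0.18 to 0.32, Mmp2 from -0.021 to 0.22, Adamts9 from -0.25 to 0.026, Adamts1 from -0.35 to 0.22, Reck from -0.25 to 0.029 and Chpf2 from -0.092 to 0.21. The value of Tnn FR minus nonFR was -0.0074 with the authors' processed values and -0.017 with the default control estimate. Without the dimmest array Adamts9 was 0.096, Adamts1 0.072 and Chpf2 -0.051. With array weights Has1 was 0.027, Adamts9 0.015, Adamts1 0.24, Reck 0.025, and the value of Chpf2 FR minus nonFR was -0.082. The cause of these changes was not tested.

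Pairing by slice in place of rat as a block gave -0.23 for Acan, -0.28 for Vcan, 0.19 for Timp1 and -0.30 for Mmp9, and no block gave -0.21, -0.28, 0.21 and -0.32. Limma on the 6 rat means gave -0.27, -0.22, 0.37 and -0.44. None of these changed a call. With only slices that hold both areas, added after the data were seen, 0 features passed, and 1132 passed the test of a difference between rats.

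The test of a difference between rats called 1544 features, but 965 among those detected on all 21 arrays, 3176 with array weights, 160 with slice means, 5 in FR areas alone and 11 in nonFR areas alone, the last 3 on fewer values. With a rat left out it called 290 (without B9) to 2218 (without B10), with 859 without P91 and 668 without B3. The range of Mmp9 over rats lost its call at 1.23 (offset of 50), 0.91 (authors' values), 1.52 (no detection filter, and again with slice means or only slices with both areas), 2.05 (FR areas alone), 1.88 (nonFR areas alone) and 1.29 (default control estimate), and ran from 1.21 to 1.52 with a rat left out, the call being lost without P91, B9, B3 or B10. Calls were gained by Acan at 0.77 (no detection filter), by the Vcan range of rat means at 1.96 (without the dimmest array) and 1.68 (array weights), and by the Timp1 range of rat means at 1.89 (array weights). Vcan could not be tested among features detected on all arrays. Signals of Acan, Bcan, Tnr and Hapln1 lie close to background, which limits what their values can show. The same limit holds for named matrix genes with a mean level below that of Acan (5.44). These are Mmp11, Lyve1, Mmp2, Ptprf, Mmp15, Dse, Adamts9, Has2, Mmp23 and Hapln3, with means from 4.74 to 5.36.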

Other observations

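Some bright probes carry detection p-values that their signals do not explain. Between 13 and 59 probes per array had a signal above 200 units and a detection p above 0.05, although the background mean lay between 29.7 and 48.2 units. Limma's default estimate put the SD of the negative controls at 26.4 to 179 units per array, and the windowed estimate used here, a different estimator, at 3.07 to 6.93. For dim members this choice sets the size of the values. The Acan range over rats was 0.77 with the windowed estimate and 0.19 with the default, and the Acan difference between areas was -0.24 and -0.063, with 6 of 6 rats lower under both when all arrays are used. Rank correlations of signal with the detection p of the same array ran from -0.99 to -0.95.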
